A study of Mus musculus with 15 samples.

Results

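The alpha-defensin loci described here were 9 genes of 1 cluster on mouse chromosome 8, Defa21, Defa22, Defa30, Defa35, Defa17, Defa24, Gm14851, Gm15293 and AY761185, out of 37620 gene identifiers in the count tables. They were selected on their measured values in these libraries, since some of them separate the 3-month animals by individual and not by genotype label. Those values are therefore given as a description. The study sequenced total RNA from the ileum, the distal small intestine, of 15 adult mice. Tissue was taken 8 days or 3 months after oral tamoxifen (10 mg, per the labels), which every animal received.

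Animals labelled mutant carried 2 floxed Rfx6 alleles and the Vilin-CreERT2 transgene (Rfx6f/f; Vilin-CreERT2, spelled as in the labels). This is a tamoxifen-inducible recombinase driven by a promoter active throughout the intestinal epithelium, Paneth cells included. Controls lacked the transgene. The 8-day cohort held 3 controls, each Rfx6f/f, and 4 labelled mutants. The 3-month cohort held 4 controls and 4 labelled mutants, and of these controls replicates 1 and 4 were Rfx6f/f and replicates 2 and 3 were Rfx6f/+. Each library came from 1 animal, and the labels name no strain.

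Alpha-defensins, called cryptdins in the mouse, are short cationic peptides that kill bacteria by disrupting their membranes. Paneth cells at the base of the small intestinal crypts store them in granules, and the matrix metalloproteinase Mmp7 cuts the mouse pro-forms to active peptides. Wnt signalling through TCF factors maintains Paneth cells and acts on cryptdin promoters. The family arose by repeated duplication, so neighbouring copies are nearly alike, and cryptdin-related genes such as Gm14851 encode peptides with another arrangement of cysteines.

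The sequences show how little separates some members, which bears on how reads can be assigned to them. The coding sequences of Defa21 and Defa22, in the GENCODE M21 annotation of GRCm38, differed at 2 of 282 positions, given in capitals:
Defa21: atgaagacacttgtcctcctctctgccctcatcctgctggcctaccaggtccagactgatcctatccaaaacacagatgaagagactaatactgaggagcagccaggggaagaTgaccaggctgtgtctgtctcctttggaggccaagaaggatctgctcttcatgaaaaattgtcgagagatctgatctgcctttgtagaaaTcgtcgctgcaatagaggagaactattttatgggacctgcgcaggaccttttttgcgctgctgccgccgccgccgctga
Defa22: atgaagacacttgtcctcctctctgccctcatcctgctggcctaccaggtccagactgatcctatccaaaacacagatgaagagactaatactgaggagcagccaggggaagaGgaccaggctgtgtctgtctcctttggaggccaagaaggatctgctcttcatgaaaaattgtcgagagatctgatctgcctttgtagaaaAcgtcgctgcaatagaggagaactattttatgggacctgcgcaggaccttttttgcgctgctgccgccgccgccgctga
Of the 369 stretches of 50 bases in the Defa21 transcript, 269 also occurred in Defa22 and 100 occurred in no other annotated gene. Defa17 had 28 such stretches of its own among 348. It shared 320 with Defa3, a neighbouring cryptdin whose coding sequence was the same at all 282 positions. Defa24 was better separated, with 266 of 370 stretches of its own, and Defa30 had 166 of 349. Gm14851 shared most with Defa29 (136 of 302 stretches), Defa35 with Defa37 (186 of 349) and Gm15293 with Defa5 (179 of 369). Counts of these members are uncertain, because the handling of reads with several alignments is not given in the sources used here. The extent depends on the length compared. At 75 bases Defa21 had 150 of 344 stretches of its own, Defa30 257 of 324 and Defa17 28 of 323. The reads were aligned to build mm9, whose copies of these genes were not compared. No exon of a member overlapped an exon of another annotated locus of the cluster.

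AY761185 was the exception in sequence: all 399 of its stretches of 50 bases were its own. Its reading frame held 95 codons and 10 cysteine codons, in capitals here, against 6 in Defa21 and 11 in Gm14851:
AY761185: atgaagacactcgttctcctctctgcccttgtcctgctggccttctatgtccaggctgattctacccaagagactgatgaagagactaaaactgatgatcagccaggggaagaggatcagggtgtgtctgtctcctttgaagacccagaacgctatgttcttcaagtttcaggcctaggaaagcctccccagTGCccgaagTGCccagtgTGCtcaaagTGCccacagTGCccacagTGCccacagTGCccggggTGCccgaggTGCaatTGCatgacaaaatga
The cysteine codons stood near the end of the frame, at short intervals.

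Promoter windows of 300 bases around the start site were found for 7 of the 9 members in the RefSeq table (GRCm38.p6). Those of Defa21 and Defa22 were the same at all 300 positions, although their counts parted at 3 months. The windows of Defa21 (chr8:21025295-21025594, plus strand) and of AY761185 (chr8:20944699-20944998, minus strand) are printed with matches in capitals, ATCAAAG for TCF factors and CTATAAA for the TATA box, searched on both strands:
Defa21: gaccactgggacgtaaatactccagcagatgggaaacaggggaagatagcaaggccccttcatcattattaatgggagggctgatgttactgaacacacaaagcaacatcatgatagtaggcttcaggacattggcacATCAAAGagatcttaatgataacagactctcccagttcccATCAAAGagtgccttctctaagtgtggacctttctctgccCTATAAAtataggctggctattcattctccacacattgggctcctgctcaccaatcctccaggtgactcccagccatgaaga
AY761185: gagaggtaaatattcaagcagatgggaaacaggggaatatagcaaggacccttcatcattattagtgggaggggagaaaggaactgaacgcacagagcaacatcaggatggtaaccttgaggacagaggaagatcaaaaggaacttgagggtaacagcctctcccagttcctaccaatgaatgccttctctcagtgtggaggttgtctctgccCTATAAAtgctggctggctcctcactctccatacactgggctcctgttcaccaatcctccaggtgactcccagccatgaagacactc
ATCAAAG occurred 2 times in the windows of Defa21, Defa22, Defa35 and Gm15293 and 1 time in that of Defa30. It was in neither the Gm14851 nor the AY761185 window. Of 32851 mouse promoters in the table, 3.73% held it. CTATAAA occurred 1 time in each of the 7 windows and in 3.63% of all promoters. A match is a string of letters and not a measured binding site.

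The 8-day libraries held between 30452485 and 54468586 counts, and those of the later cohort between 26078462 and 36270306. A count of 3 thus corresponded to between 0.0552 and 0.117 CPM (counts per 1e6 of TMM-scaled library size), which covers counting error only. Rfx6, the targeted gene, was no lower under the mutant label and was called higher at 3 months (log2 fold change 0.72 ± 0.17, edgeR adjusted p = 0.035, called in 8 of the 16 fits run). It had 50 to 84 counts in the 8-day controls and 44 to 105 in the labelled mutants, and at 3 months 38 to 52 and 65 to 106. A count over the whole gene does not show whether the floxed part was removed. The 8 Paneth markers were detected in both cohorts. Their mean log2(CPM + 1) at 3 months was 7.61 to 7.89 in controls and 7.27 to 8.10 in labelled mutants. In edgeR 0 of the 8 were called at either time, and all 8 stand in the list of Paneth products described last. At 3 months markers of ileal enterocytes were lower in the labelled mutants (mean log2(CPM + 1) of 6.87 to 7.32 against 7.84 to 8.07) and those of jejunal enterocytes higher (8.00 to 8.65 against 6.07 to 6.47), with 2 of 6 and 3 of 6 genes called in edgeR, where 9.28% of 17085 genes were. T cell and leukocyte markers were at 3.31 to 4.25 against 4.46 to 4.72, with 2 of 5, Cd3g and Cd8a, called lower, each in 7 of the 16 fits run. B and plasma cell markers were at 3.48 to 5.76 against 5.57 to 6.45, with 1 of 5 called lower, and goblet markers at 9.54 to 10.3 against 9.28 to 9.61, with 1 of 8 called higher. At 8 days the labelled mutants and controls overlapped in each of these lists, and 1 jejunal marker, Sis, was called higher, in 6 of the 13 fits run. The B and plasma cell markers had a median log2 fold change of 2.15 at 8 days, with a mean log2(CPM + 1) of 3.73 to 6.30 in labelled mutants and 3.42 to 4.34 in controls. The part of these shifts in the member values was not tested. In bulk tissue, fewer Paneth cells and less RNA per Paneth cell cannot be told apart.

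At 8 days 6 of the members were abundant and the other 3 were low or at 0. Per kb of transcript, Defa24 was highest at 5126 CPM ± 654 (SD, n = 7), followed by Defa30 at 1669 ± 184, Defa22 at 1119 ± 121 and Defa21 at 1031 ± 136. Gm14851 followed at 649 CPM per kb ± 51.1 and Defa17 at 482 ± 104. The ranges of Defa22 and Defa21 overlapped, as did those of Gm14851 and Defa17, and the other neighbours in this order did not. Members differ in how many stretches of 50 bases are their own, from 28 of 348 in Defa17 to 266 of 370 in Defa24. The order is therefore one of assigned counts and may not be that of the transcripts. Defa35 was at 8.45 CPM per kb ± 0.952 and Gm15293 at 1.53 ± 0.581. AY761185 had a count of 0 in all 7 libraries.

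Defa21 had 14607, 16229 and 23416 counts in the 8-day controls and 23167, 21033, 16276 and 10373 in the labelled mutants. As CPM these were 470, 440 and 431 against 521, 411, 406 and 337, so that the groups overlapped. The log2 fold change of labelled mutant over control was -0.09 ± 0.13 (SE), with an adjusted p of 0.933 in edgeR's quasi-likelihood test. For most of the other members the values were also near 0. Defa22 stood at -0.09 ± 0.11, Defa24 at -0.03 ± 0.13, Defa30 at 0.02 ± 0.11, Gm14851 at 0.01 ± 0.09, Defa17 at -0.08 ± 0.20 and Defa35 at 0.11 ± 0.16 on the log2 scale. Gm15293, at 10 to 41 counts, had -0.70 ± 0.35 and an adjusted p of 0.646, the lowest of the set.

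Of the 8 members tested at 8 days, 0 passed an adjusted p of 0.05 in edgeR, where 0.0915% of 17493 genes did. The count was also 0 at an unadjusted p under 0.05 and 0 in DESeq2, beside 8.8% and 1.02% of all genes. None of the 8 had groups that did not overlap, against 7.63% of all genes. Their median log2 fold change was -0.06, beside -0.0020 for all genes. A missed threshold does not show equal levels, and the SE of 0.09 to 0.35 sets what could be seen.

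At 3 months 3 members were high in the same 2 control animals. Defa21, a classical cryptdin, had 12674, 0, 13335 and 17 counts in control replicates 1 to 4. In the labelled mutants it had 1, 7, 19 and 5 counts. Control replicates 1 and 3 were therefore at 441 and 518 CPM, within the 8-day range of 337 to 521 CPM, and the other 6 libraries were at 0.598 CPM or less. Replicate 1 was Rfx6f/f and replicate 3 was Rfx6f/+, and so were the low replicates 4 and 2, in that order.

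Gm14851, the cryptdin-related gene, had 3062, 86, 2972 and 39 counts in the 3-month controls and 42, 44, 92 and 71 in the labelled mutants. The same 2 control animals were high, at 107 and 115 CPM, and the other 6 libraries lay between 1.35 and 2.64 CPM. Even in the high animals Gm14851 was below its 8-day range of 202 to 252 CPM. Each table was scaled separately, and cohort and time cannot be told apart.

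Defa22 had 13280, 3917, 14021 and 1661 counts in the 3-month controls and 677, 1008, 1456 and 4381 in the labelled mutants. Control replicates 1 and 3 were again highest, at 462 and 545 CPM. The low animals were not near 0 here: control replicates 2 and 4 had 120 and 58.5 CPM, and labelled mutant replicate 4 had 156 CPM beside 21.7 to 38.8 CPM in replicates 1 to 3. Defa22 thus kept counts in animals where its near-copy Defa21 had almost none.

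The fold changes between labels at 3 months are given as a description. Defa21 stood at 240 CPM ± 278 (SD, n = 4) in controls and 0.237 ± 0.198 in labelled mutants, a log2 fold change of -9.88 ± 2.54 (SE). Gm14851 was at -4.85 ± 1.34 and Defa22 at -2.25 ± 0.83. With control replicates 1 and 3 both left out, a choice made after the data were seen, these became -0.23 ± 1.18, -0.05 ± 0.38 and -0.52 ± 0.77. The 2 libraries were left out because they were the high ones, so smaller values were bound to follow for members high in them, here and where this choice is named again, and nothing is read from them. The groups overlapped in all 3 genes.

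**Figure D1:**
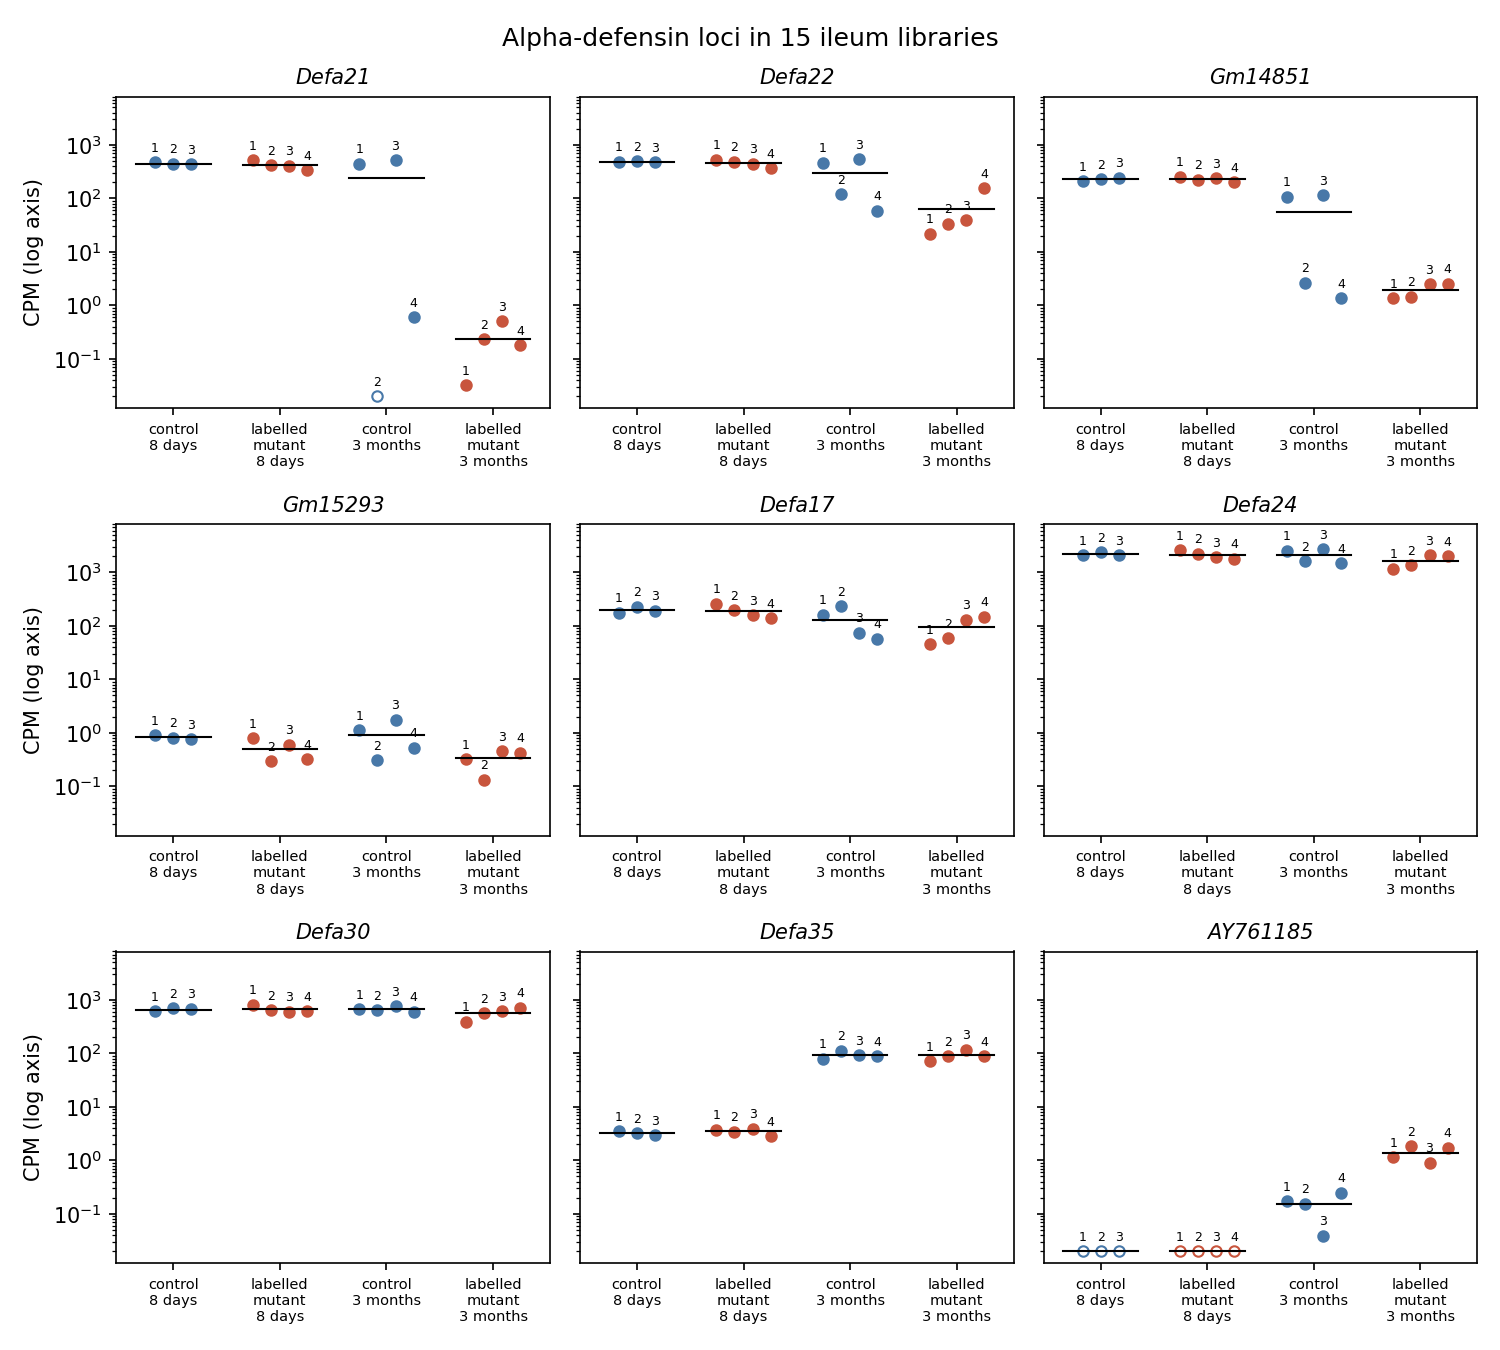
CPM of each member (log axis) in each library, by group; numbers are replicates, black bars are group means, and open circles at the bottom are counts of 0. Defa21 and Gm14851 are high in control replicates 1 and 3 at 3 months and low in the other 6 libraries of that cohort, while Defa24 and Defa30 vary less.

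Gm15293, a low-count member, leaned the same way. Its 3-month controls had 32, 10, 45 and 15 counts and its labelled mutants 10, 4, 17 and 12. Control replicates 1 and 3 were highest, at 1.11 and 1.75 CPM, and the log2 fold change was -1.43 ± 0.56. Without those 2 libraries it was -0.30 ± 0.51.

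Defa17, the cryptdin with the same coding sequence as Defa3, varied between animals in another order. It had 4636, 7581, 1906 and 1619 counts in the 3-month controls and 1415, 1779, 4915 and 4184 in the labelled mutants. Control replicate 2 was highest, at 233 CPM, and replicate 3 was among the low ones, at 74.0 CPM. The log2 fold change was -0.45 ± 0.51, and -0.02 ± 0.49 without control replicate 2.
Defa3 itself had 891, 5, 361 and 2 counts in the controls and 0, 1, 3 and 6 in the labelled mutants, while Defa17 had 1415 to 7581 counts across all 8. Outside control replicates 1 and 3, Defa3 had at most 6 counts.

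Defa24 and Defa30, the members with the most counts, varied less. Defa24 had 73064, 52900, 69424 and 42179 counts in the 3-month controls and 36532, 40729, 77810 and 55654 in the labelled mutants. The groups overlapped, with a log2 fold change of -0.35 ± 0.25. Without control replicates 1 and 3 it was 0.08 ± 0.25. Defa30 had 19171, 21045, 19475 and 16954 against 12187, 17069, 23110 and 20086 counts, and a log2 fold change of -0.22 ± 0.17.

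Defa35 was the steadiest member at 3 months. It had 2289, 3631, 2376 and 2508 counts in controls and 2221, 2671, 4419 and 2490 in labelled mutants, a log2 fold change of -0.02 ± 0.15. The sign turned when 1 library was left out, in a range of -0.17 to 0.080. Its level differed between cohorts: 71.3 to 118 CPM at 3 months and 2.83 to 3.87 CPM at 8 days. The ranges did not meet, and time, cohort and library handling cannot be told apart.

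AY761185 ran the other way. It had 5, 5, 1 and 7 counts in the 3-month controls and 36, 55, 34 and 48 in the labelled mutants. Every labelled mutant was above every control, at 0.906 to 1.82 CPM against 0.0388 to 0.246 CPM. The log2 fold change was 3.13 ± 0.40, at counts near the floor of 3 in controls. It was 2.70 ± 0.44 against the Rfx6f/f controls alone and 2.79 ± 0.45 without control replicates 1 and 3.

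All 9 members passed the filter on low counts at 3 months, AY761185 only through the labelled mutants, where it was high. The groups of 1 member, AY761185, did not overlap, and 19.2% of all genes had groups that did not. The median log2 fold change was -0.45 for the members and 0.0077 for all genes. The members were chosen with this contrast known, so no test is given for them there and nothing is read from these values.

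**Figure D2:**
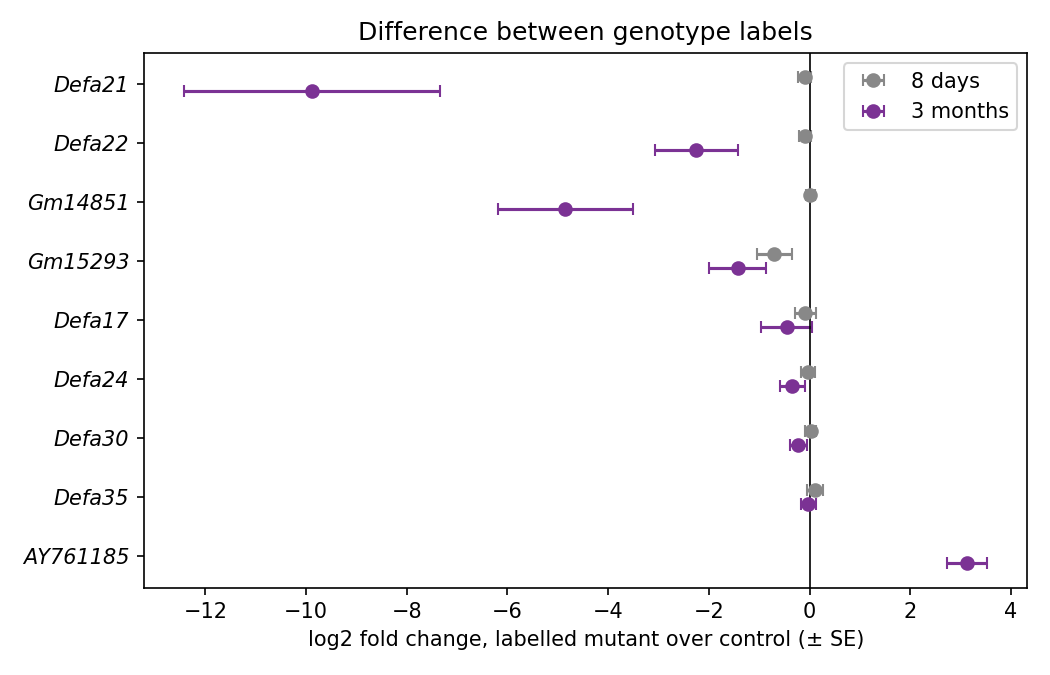
Log2 fold change of labelled mutant over control for each member tested, with SE as bars, at 8 days (grey) and 3 months (purple). The 8-day values lie near 0 apart from Gm15293 at -0.70, and the 3-month values run from -9.88 for Defa21 to 3.13 for AY761185.

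The spread between animals with one label was among the values the members were chosen on, and its place among all genes is a description only. The SD of log2 CPM within groups, pooled over both labels, was 4.71 for Defa21 at 3 months, and 1 of 17085 genes had a larger one. It was 2.41 for Gm14851, 1.40 for Defa22, 0.90 for Defa17 and 0.85 for Gm15293, and each of these 5 lay above the 95th percentile of all genes. AY761185 had 0.57, Defa24 0.42, Defa30 0.28 and Defa35 0.25, beside a median of 0.17 over all genes. At 8 days the 8 tested members had an SD of 0.13 to 0.49, none above the 95th percentile.

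Control replicates 1 and 3 were left out because they were the high ones, so a smaller SD of Defa21 and Gm14851 was bound to follow. Without them the SD was 1.49 for Defa21, larger than in 99.2% of genes, and 0.52 for Gm14851, larger than in 91.3%. It was 1.13 for Defa22 and 1.02 for Defa17, larger than in 98.5% and 98.1% of genes.

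**Figure D3:**
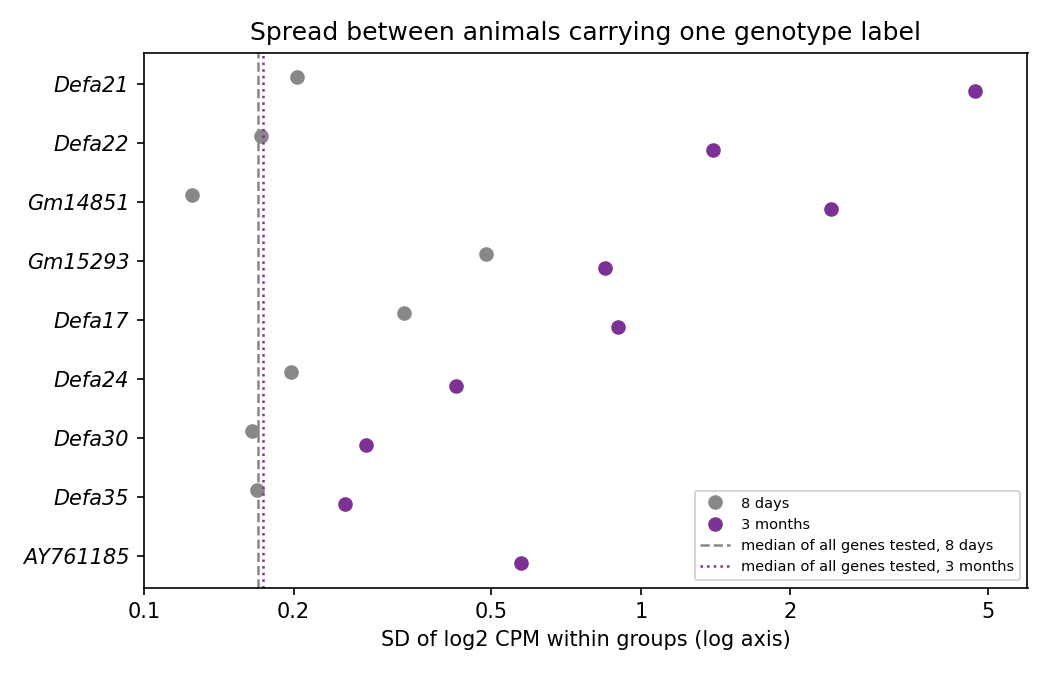
SD of log2 CPM within groups (log axis) for each member at 8 days (grey) and 3 months (purple), with the medians of all genes tested as vertical lines. Defa21 reaches 4.71 at 3 months and 0.20 at 8 days.

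Likeness was measured as Pearson's r of log2 CPM over the libraries of a cohort after group means were subtracted, as a description. At 3 months (8 libraries) Defa21 followed Gm14851 with r = 0.94, Gm15293 with 0.82, Defa24 with 0.77 and Defa22 with 0.71. Its r with Defa17 was -0.10, with Defa35 -0.28 and with AY761185 -0.47. At 8 days (7 libraries) the r between members ranged from 0.19 for Defa30 with Defa35 to 0.99 for Defa17 with Defa24. Over the 28 pairs tested at both times the median was 0.70 at 8 days and 0.53 at 3 months, and 0.38 over all 36 pairs at 3 months, those with AY761185 included. Depth and marker levels differ between the libraries, and their part in r was not tested. At 3 months r rests on few animals and on the values the members were chosen on, so nothing is read from it there.

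**Figure D4:**
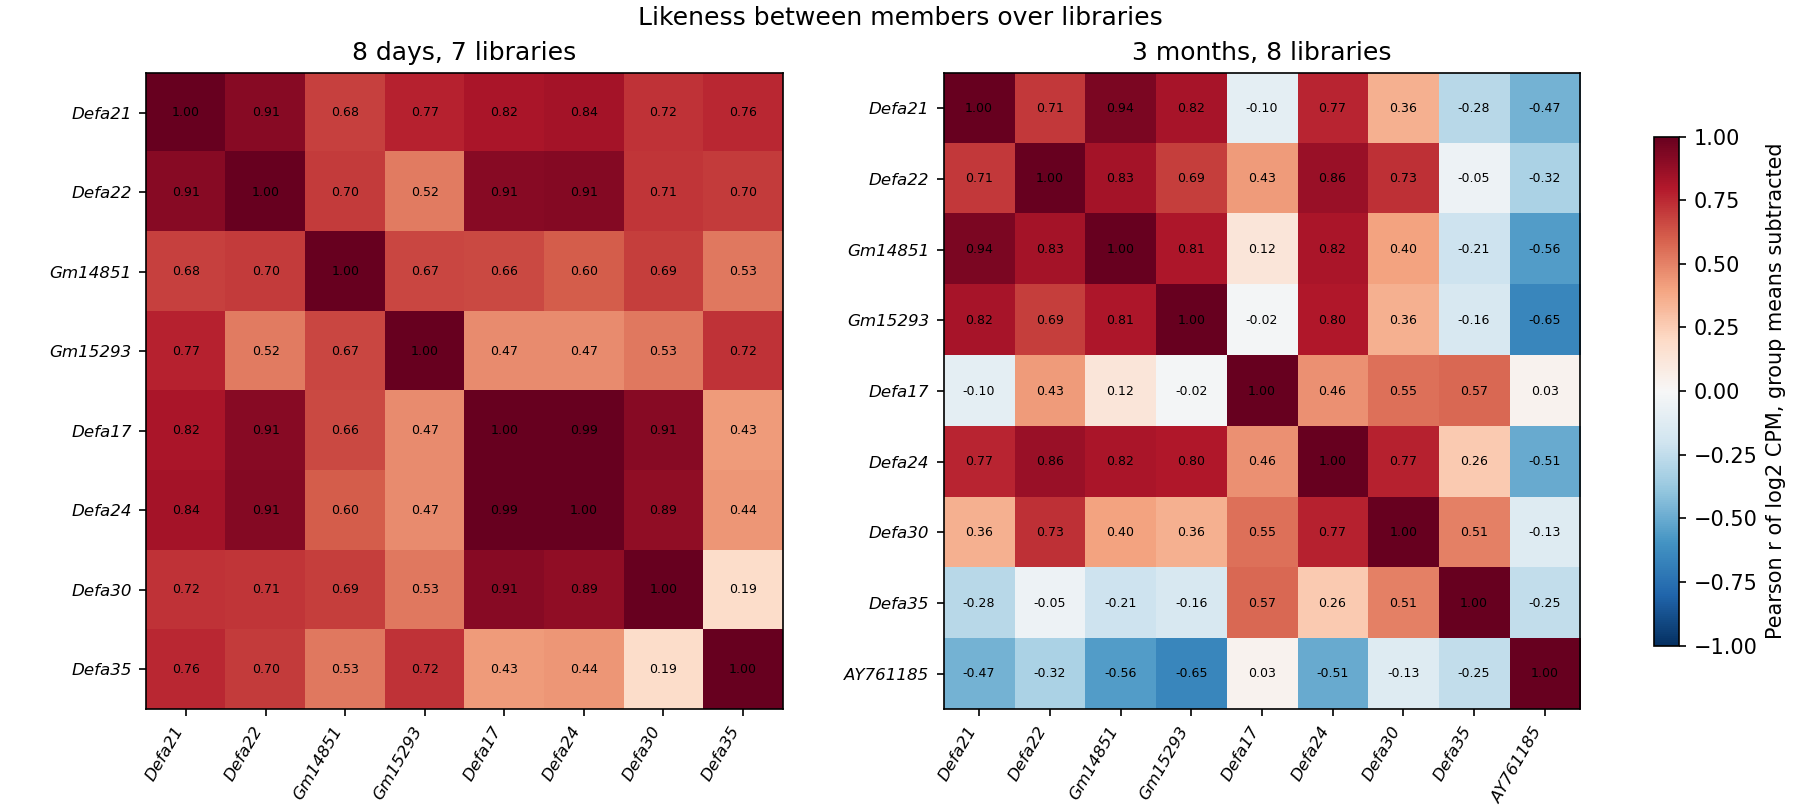
Pearson r between members over the 7 libraries of 8 days (left) and the 8 of 3 months (right), group means subtracted. All pairs are positive at 8 days, and at 3 months AY761185 is negative with 7 of the 8 other members.

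The named genes most like single members at 3 months lay outside the listed cluster. Defa21 was closest to an identifier without a symbol, ENSMUSG00000065958 (r = 0.99), and to Slc7a2, a transporter of cationic amino acids (r = 0.97). That identifier had 20793, 1, 20538 and 30 counts in the controls and 0, 3, 31 and 1 in the labelled mutants. ENSMUSG00000065957, also without a symbol, was second for Gm14851 at r = 0.97. It had 16594, 27, 15515 and 30 counts in the controls and 2, 14, 62 and 22 in the labelled mutants. So the 2 unnamed loci were high in control replicates 1 and 3 as Defa21 was. Whether they lie in the cluster is not known here, because the annotation used did not name them. Over all genes the median r with the closest partner was 0.98 at 3 months and 0.99 at 8 days, so such values are common.

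Against the summed members, the 5 most alike genes outside the set at 8 days included Clps, the colipase, at r = 0.99, and the cluster genes Defa3 and Gm15292, both at 0.99. The least alike were an identifier without a symbol, Lef1 and Batf, at -0.99, -0.99 and -0.98. At 3 months the highest were Commd2, Ncdn and Morn4, at 0.97 each, and the lowest Chic2 at -0.98. No gene of the cluster was among the 5 highest at 3 months.

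The rest of the cluster comprised 39 further loci with a row, of which 13 had no count at 3 months and 13 none at 8 days. Several repeated the Defa21 pattern. Gm7861 had 4498, 0, 3823 and 5 counts in the 3-month controls and 2, 0, 12 and 1 in the labelled mutants. Defa34 had 433, 3, 449 and 49 against 2, 1, 116 and 4. Defa27 went another way, with 266, 1753, 307 and 385 against 1207, 399, 898 and 1832 counts, and 1 to 24 counts at 8 days. Of the 9 tested at 3 months, 0 were called in edgeR, 6 had an unadjusted p under 0.05, and 4 were called in DESeq2. Over all 17085 genes these shares were 9.28%, 29.4% and 17.4%. Several of these loci share sequence with members, which were chosen on this contrast, so nothing is read from the 3-month counts. Of the 14 tested at 8 days all 3 counts were 0.

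Together the 48 loci of the cluster with a row took 0.414 to 0.589% of a library's counts at 8 days and 0.186 to 0.569% at 3 months. A further 6 protein-coding genes annotated in the cluster had no row. The unnamed loci above are not included, so these shares may not cover the whole cluster. The 95% binomial intervals were at most 0.0058 percentage points wide and cover counting error only. The 3-month controls held 0.425% ± 0.151 (SD, n = 4) and the labelled mutants 0.284% ± 0.0839, and the groups overlapped. Defa24 alone supplied 41.5 to 44.7% of the counts of these 48 loci at 8 days and 46.2 to 62.2% at 3 months. Summed to 1 feature, the cluster had a log2 fold change of -0.61 ± 0.29 at 3 months and -0.02 ± 0.13 at 8 days.

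**Figure D5:**
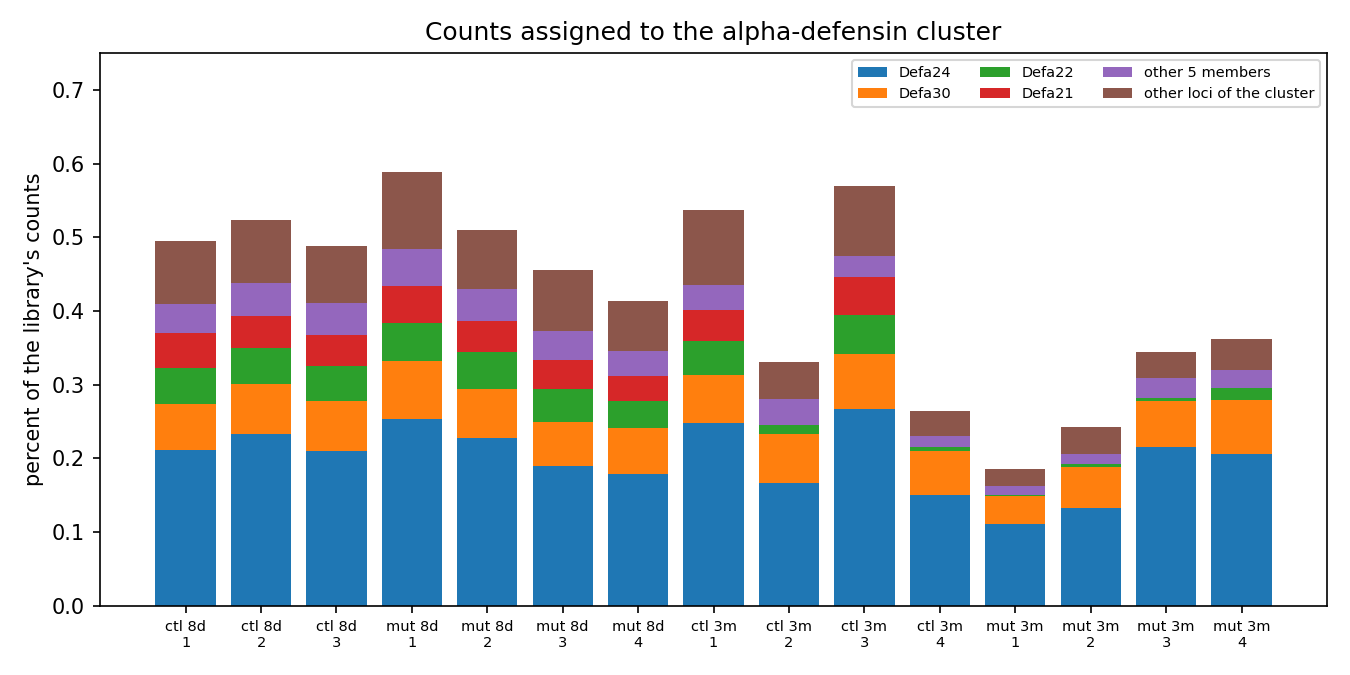
Percent of each library's counts assigned to the cluster, stacked by locus (ctl, control; mut, labelled mutant; 8d and 3m, 8 days and 3 months). Defa21 and Defa22 are visible in all 8-day libraries and in control replicates 1 and 3 at 3 months, where the totals reach 0.538 and 0.569%.

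The flanks of the cluster held few expressed genes. Of the 5 nearest protein-coding genes on each side, 3 passed the filter at 3 months and 4 at 8 days, and 0 of these were called at either time in edgeR, where 9.28% and 0.0915% of all genes were. At 3 months 1 had an unadjusted p under 0.05 and 0 were called in DESeq2, beside 29.4% and 17.4% of all genes. At 8 days both counts were 0, beside 8.8% and 1.02%. With so few genes tested, nothing is read from these counts. Atp7b, the copper transporter, had a log2 fold change of 0.54 ± 0.21 at 3 months (edgeR adjusted p = 0.128), and Alg11, a mannosyltransferase, 0.09 ± 0.06. Gm15056, the only one tested on the other side, had -1.12 ± 0.57 (edgeR adjusted p = 0.228) at 2 to 19 counts.

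Lists of other Paneth genes, which do not cover all products of the cell type, were read in the same fits. Of 15 genes listed as Paneth secretory products, 0 were called in edgeR at either time. At 3 months 3 had an unadjusted p under 0.05 and 2 were called in DESeq2, where 29.4% and 17.4% of all genes were. At 8 days the counts were 2 and 0, beside 8.8% and 1.02%. Their median log2 fold change was -0.19 at 3 months, beside 0.0077 for all genes. Single values ran in both directions, from -0.73 ± 0.47 for Reg3g, a C-type lectin that binds bacteria, to 0.72 ± 0.32 for Pnliprp2, a lipase. Lyz1, the Paneth lysozyme, stood at -0.23 ± 0.20 and turned sign among the 16 fits run (-0.36 to 0.13). Mmp7, which processes the pro-defensins, stood at -0.40 ± 0.17 (edgeR adjusted p = 0.158), and Ang4, an antimicrobial ribonuclease, at 0.54 ± 0.39 (edgeR adjusted p = 0.374).

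Of 15 regulators of Paneth and secretory cells, 1 was called at 3 months, Sox9, where 9.28% of all genes were. At an unadjusted p under 0.05 there were 5, beside 29.4% of all genes, and DESeq2 called 3, beside 17.4%. This transcription factor is needed for Paneth cells, and it rose by 0.55 ± 0.14 on the log2 scale (edgeR adjusted p = 0.041), a call that held in 7 of the 16 fits run. At 8 days 0 regulators were called in edgeR, 0 had an unadjusted p under 0.05 and 0 were called in DESeq2. The difference between the 3-month and the 8-day effect was called for 0 of the 30 list genes in edgeR, where 0.785% of 17959 genes were called. At an unadjusted p under 0.05 there were 4, beside 16.6% of all genes, and DESeq2 called 1, beside 5.57%.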

How the data were processed

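The authors deposited raw read counts per Ensembl gene, 1 table for each cohort and 1 column per animal. Per the submitters' processing notes, bcl2fastq 2.17.1.14, Bowtie 1.0.0, TopHat2 2.0.10, Bowtie2 2.1.0 and HTSeq 0.6.1 were used with build mm9. Strand, annotation release and the treatment of reads with several alignments are not given in the sources used here. The labels allow 2 RNA extraction kits without saying which sample had which. Columns were matched by sample title, and 0 per-sample columns were left unused.

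Symbols were matched for 32897 of 37620 identifiers (GENCODE M21), which was also used for transcript sequences. No gene coordinates of the counts are given. Promoters came from RefSeq. Each cohort was fitted across all genes with edgeR 4.0.16 (R 4.3.3, quasi-likelihood F test, filterByExpr with a minimum count of 10, TMM scaling), two-sided, and calls needed a p of under 0.05 after Benjamini-Hochberg adjustment. The scripts were tested on simulated data. CPM use TMM-scaled library sizes, and log2 CPM a prior count of 2. No p is given for members at 3 months, the contrast they were chosen on.

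Members and lists were chosen with earlier results of these data known. The text names the members, cluster loci, the 5 flanking genes on each side, genes most like the members, and 2 Paneth lists. Defa3, Gm7861, Defa34, Defa27, Lyz1 and Mmp7 were picked from those lists after their values were seen. Alternatives were DESeq2 1.42.0, other scalings and filters, Rfx6f/f controls only, summed features, another prior count, ranks, and each library left out.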

Additional observations from a re-analysis of the deposited data

Results flagged for a closer look

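In 29 checks of 1 library against the others of its group of 4, 1 value stood apart, and independent checks would give about 1.45 by chance. This was Defa22 in labelled mutant replicate 4 at 3 months, at 156 CPM where the other 3 labelled mutants had 21.7 to 38.8 CPM. Its gap took 0.873 of the group's range. Without this library the log2 fold change of Defa22 was -3.24 in place of -2.25. Members share sequence and were chosen on their 3-month values, so nothing is read from the count of checks.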

How the results depend on the processing

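No paired analysis was possible because no label ties a mutant animal to a control. The counts of all genes called were 16 at 8 days, 1586 at 3 months and 141 for the difference of effects. They were 178, 2969 and 1001 with DESeq2. Without a filter the first became 27 and the last 223, and with 10 counts in every library the last became 248. With Rfx6f/f controls only 36 genes were called at 3 months, and without control replicates 1 and 3 of that cohort, a choice made after seeing the data, 24 at 3 months and 6 for the difference. Leaving out 1 library gave 8 to 200 (the highest without labelled mutant replicate 1), 391 to 1521, and 10 to 749. The causes were not tested.

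Among the members at 8 days, 0 were called in any alternative, and signs near 0 turned when 1 library was left out. Defa22 ranged from -0.17 to 0.00038, Defa30 from -0.086 to 0.065, Defa17 from -0.28 to 0.040, Defa24 from -0.14 to 0.042 and Gm14851 from -0.038 to 0.068 on the log2 scale. At 3 months, the contrast that chose the members, Defa17 ranged from -0.74 to -0.022, Defa22 from -3.24 to -1.78 and Defa35 from -0.17 to 0.080. Defa24 ranged from -0.48 to -0.20, Defa30 from -0.34 to -0.078 and Gm15293 from -1.73 to -0.93. The range was -10.6 to -9.18 for Defa21, -5.26 to -4.24 for Gm14851 and 2.84 to 3.42 for AY761185. Defa35 stood at 0.12 with Rfx6f/f controls only. Without control replicates 1 and 3 Defa24 stood at 0.08 in place of -0.35. Paralogs that share sequence, and 3 to 4 animals a group, limit every member value.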
